A study of Homo sapiens with 3 samples.

Results

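RNA of the ERBB receptors and their ligands was followed in ribociclib-treated breast cancer spheroids, to ask which receptor transcripts and which ligand transcripts the cells held where EGFR RNA is near absent. The members were the 10 genes EGFR, ERBB2, ERBB3, ERBB4, AREG, EREG, HBEGF, TGFA, NRG1 and BTC, taken by symbol from 22499 rows with a gene symbol in each count table, and all 10 were found. CAMA-1 is an established estrogen receptor positive luminal breast cancer line. Spheroids were started from 2000 cells in 3 compositions: 100% sensitive cells, 50% sensitive and 50% resistant cells (coculture), and 100% resistant cells. Sensitive cells were the parental line labelled with Venus by lentivirus, and resistant cells were a single line derived from it by long growth in ribociclib and labelled with mCherry. Every spheroid received 1 µM ribociclib, an inhibitor of the cell cycle kinases CDK4 and CDK6, so no group lacked the drug, and the labels give DMSO with it. Cells were harvested on day 11, frozen alive, thawed and sequenced by 10X Chromium 3′ chemistry, with 1 library for each composition. No difference below therefore has a replicate check, no p-value is given, and every interval is a 95% interval that covers counting error only.

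The ERBB family holds 4 cell-surface receptor kinases that signal as pairs. EGFR is the receptor for EGF, amphiregulin and related ligands, ERBB2 has no known ligand of its own and works as a partner of the others, ERBB3 binds neuregulins but has little kinase activity, and ERBB4 binds neuregulins and also betacellulin, epiregulin and heparin-binding EGF. Ligands are made as membrane proteins and released by proteases, and in mammary epithelium amphiregulin is known as an estrogen-induced ligand that acts through EGFR on neighbouring cells. ERBB2 and ERBB3 together form a strong activator of PI3-kinase in luminal cells.

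The cells fell into 4 populations in the deposited annotation: 3329 sensitive cells from the monoculture, 2059 sensitive cells from the coculture, 6292 resistant cells from the coculture and 7557 resistant cells from the monoculture, 19237 in all. Where 4 values stand together without labels below, they follow this order. Median UMIs per cell were 27622, 34056, 30687 and 35443, where a UMI marks 1 captured RNA molecule. A level below is the sum of a gene's UMIs over the cells of a population per 1000000 UMIs (CPM). A molecule is counted once whatever its length in this chemistry, so CPM values of different genes were set side by side without division by gene length, although capture at the 3′ end can differ between genes. All 8 luminal epithelial markers (KRT8, KRT18, KRT19, EPCAM, CDH1, ESR1, GATA3, FOXA1) were above 1 CPM in every population and summed to 7677 to 9619 CPM. The 5 basal markers summed to at most 5.88 CPM, the 4 immune markers to at most 1.16 CPM and the 2 endothelial markers found to at most 0.301 CPM, while the 5 fibroblast markers summed to 38.4, 22.3, 5.14 and 2.64 CPM, nearly all of it COL3A1 in the sensitive line (35.2 and 18.7 CPM), with 3 of the 5 genes at 0 in sensitive monoculture. The part of this RNA in the differences below was not tested. The libraries shared 34 to 60 barcodes pairwise, of which 7 to 17 were annotated cells in both.

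Windows of 250 bases before the transcription start are shown for EGFR, the receptor with almost no RNA here, for ERBB2, the receptor that differed most between culture conditions in sensitive cells, and for AREG, the most abundant ligand transcript of resistant cells. They are RefSeq sequences of build GRCh38.p14, printed 5′ to 3′ on the gene's strand, which is the plus strand for these genes. RefSeq's table held 8 of the 10 members and not ERBB3 or NRG1. A gene can have further starts that these windows do not cover, and ERBB2 had a single window in the table. The EGFR window shown is chr7:55018767-55019016, the ERBB2 window is chr17:39687844-39688093 and the AREG window is chr4:74444886-74445135. Capitals mark matches on either strand to GGGCGG (SP1), GCCNNNGGC (TFAP2), TGANTCA (AP-1), TGACGTCA (the cyclic AMP response element, CRE), the palindromic estrogen response element and TGTTTAC (forkhead).
EGFR: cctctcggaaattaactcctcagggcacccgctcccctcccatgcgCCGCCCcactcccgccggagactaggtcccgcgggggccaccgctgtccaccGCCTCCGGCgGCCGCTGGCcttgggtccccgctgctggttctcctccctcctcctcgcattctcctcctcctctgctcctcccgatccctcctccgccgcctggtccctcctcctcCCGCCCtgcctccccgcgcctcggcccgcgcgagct
ERBB2: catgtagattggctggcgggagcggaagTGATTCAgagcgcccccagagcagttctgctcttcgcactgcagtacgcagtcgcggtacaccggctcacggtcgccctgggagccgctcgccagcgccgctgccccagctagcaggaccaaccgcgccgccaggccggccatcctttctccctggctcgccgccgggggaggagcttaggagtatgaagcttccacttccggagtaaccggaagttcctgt
AREG: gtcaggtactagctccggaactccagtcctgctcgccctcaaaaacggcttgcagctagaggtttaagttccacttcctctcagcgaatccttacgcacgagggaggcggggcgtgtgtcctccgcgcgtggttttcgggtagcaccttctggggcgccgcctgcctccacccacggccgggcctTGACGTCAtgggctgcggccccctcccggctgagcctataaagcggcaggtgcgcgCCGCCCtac
The EGFR window shown held 2 matches to GGGCGG and 2 to GCCNNNGGC, while a second EGFR window in the table, not printed, held 2 to TGANTCA and 0 to the other motifs. The ERBB2 window held 1 match to TGANTCA, and the AREG window held 1 match to TGACGTCA, which starts 65 bases before the transcription start, and 1 match to GGGCGG. No match to the estrogen response element was found in any of the 3 windows. Of 35116 RefSeq windows of this length, 42.6% held GGGCGG, 19.8% GCCNNNGGC, 6.57% TGANTCA, 1.65% TGACGTCA, 0.0399% the estrogen response element and 2.98% TGTTTAC. A match describes letters only and does not show that a factor binds.

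EGFR RNA was near absent. EGFR lies at chr7:55086710-55279321 on the plus strand (GRCh37, as are all gene positions below). It had 1 UMI in 3329 sensitive monoculture cells (0.0104 CPM), 0 in 2059 sensitive coculture cells, 1 in 6292 resistant coculture cells (0.00501 CPM) and 1 in 7557 resistant monoculture cells (0.00369 CPM). Taken as 3 counts, the count of 0 allows up to 0.0423 CPM, or a UMI in up to 0.146% of these cells. Over all barcodes of the libraries, also those without annotation, EGFR had 2, 9 and 3 UMIs in sensitive monoculture, coculture and resistant monoculture. EGFR was thus at or under the limit of detection in all 4 populations, and no ratio was formed.

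ERBB3 was the most abundant receptor transcript in every population, ahead of ERBB2. ERBB3 (chr12:56470583-56497289, plus strand) stood at 68.6 CPM (67.0 to 70.3) in monocultured sensitive cells, 48.9 (47.2 to 50.5) in cocultured sensitive cells, 51.6 (50.6 to 52.6) in cocultured resistant cells and 48.2 (47.4 to 49.0) in monocultured resistant cells. The sensitive monoculture was the highest, and the intervals of sensitive coculture and resistant monoculture overlapped. ERBB2 (chr17:37844167-37886679, plus strand) stood at 47.9 CPM (46.5 to 49.3), 31.2 (30.0 to 32.6), 36.3 (35.5 to 37.2) and 40.7 (39.9 to 41.4) in the same order. Over all cells its order from high to low was sensitive monoculture, resistant monoculture, resistant coculture, sensitive coculture, with no overlap between neighbouring intervals. The first 2 places turned within S and G2M cells, where resistant over sensitive monoculture gave 1.12 (0.965 to 1.30) and 1.19 (1.03 to 1.39), and in the depth-matched and cluster comparisons given below. ERBB4 (chr2:212240442-213403565, minus strand) was lower, at 9.93 CPM (9.31 to 10.6), 10.4 (9.63 to 11.1), 11.98 (11.5 to 12.5) and 10.6 (10.2 to 11.0). Resistant coculture cells were the highest in ERBB4, and the other populations had overlapping intervals.

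Summed over the 4 receptors, the level was 126 CPM in monocultured sensitive cells, 90.5 CPM in cocultured sensitive cells, 99.9 CPM in cocultured resistant cells and 99.5 CPM in monocultured resistant cells. ERBB3 held 54.3%, 54.0%, 51.6% and 48.5% of these receptor UMIs. ERBB2 held 37.9%, 34.5%, 36.4% and 40.9%, and ERBB4 held 7.86%, 11.5%, 11.99% and 10.7%. The largest share of EGFR was 0.00822%, in sensitive monoculture. Receptor RNA was therefore almost wholly ERBB3 and ERBB2, with a smaller part of ERBB4, in both lines and in both kinds of culture.

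**Figure D1:**
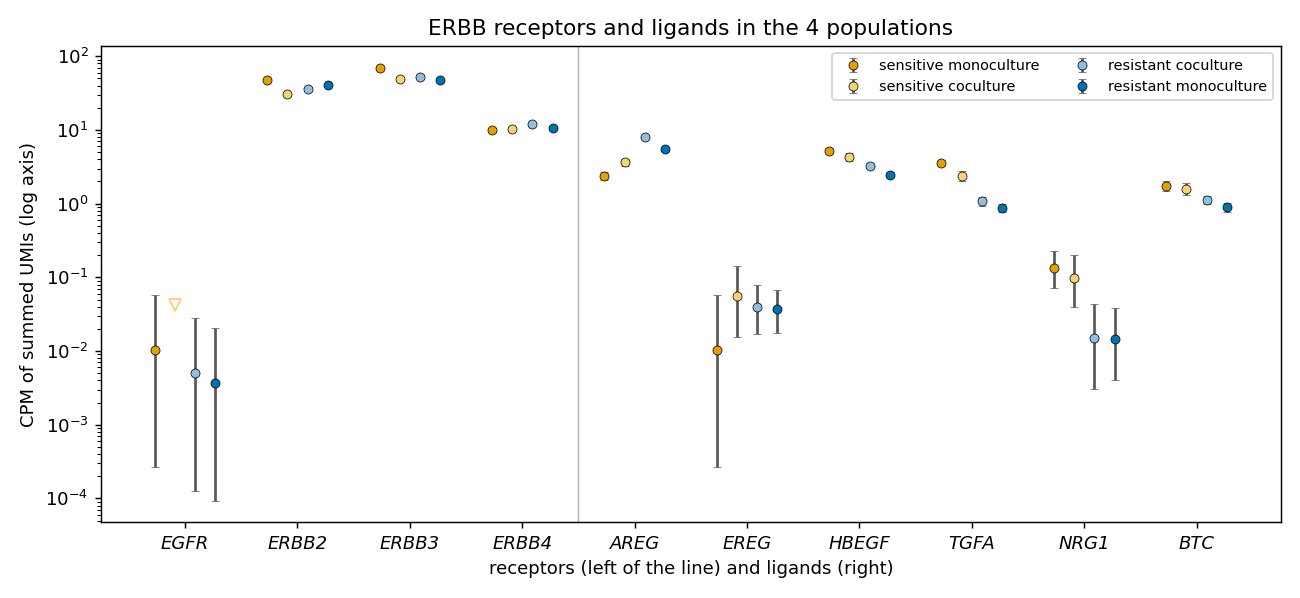
CPM of summed UMIs (log axis) of the 4 receptors and 6 ligands in the 4 populations, 1 point for each population, bars showing the 95% Poisson interval. The open triangle marks the limit that a count of 0 allows, for EGFR in sensitive coculture cells (0.0423 CPM). ERBB3 and ERBB2 sit between 31.2 and 68.6 CPM, ERBB4 near 10 CPM, and EGFR, EREG and NRG1 under 0.2 CPM.

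Single cells held few molecules of each receptor. A UMI of ERBB3 was found in 81.8%, 76.4%, 75.9% and 76.7% of the cells of the 4 populations, and a UMI of ERBB2 in 70.0%, 61.0%, 63.1% and 69.5%. With each cell thinned to 5000 UMIs, which all 19237 cells exceeded, the shares for ERBB3 were 29.5%, 23.0%, 22.5% and 21.4%. Those for ERBB2 were 22.0%, 14.2%, 16.4% and 18.9%. The thinned ERBB2 shares kept the order of the CPM values. Both ERBB2 and ERBB3 were seen in 58.3%, 48.3%, 49.3% and 55.3% of cells, and no receptor UMI was seen in 5.05%, 8.21%, 7.69% and 6.89%. Had every cell held ERBB2 at the same rate per UMI, 71.97%, 64.2%, 66.6% and 74.4% of cells would have shown it, above the shares seen in each population. The largest ERBB2 count in a cell was 9, 7, 11 and 15 UMIs, and the 1% of cells with the most ERBB2 held 4.88% to 5.69% of its UMIs.

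No cell type in these libraries is known to lack the receptors, so RNA of the other line was read from FABP7, a fatty acid binding protein abundant in the sensitive line. A UMI of FABP7 was found in 78.0% of sensitive monoculture cells, in 1.79% of resistant monoculture cells and in 18.2% of resistant coculture cells, at median depths of 27622, 35443 and 30687 UMIs. The FABP7 level in cocultured resistant cells, less that in monoculture, was 4.71% of the level in cocultured sensitive cells. This level was uneven: the 1% of cocultured resistant cells with the most FABP7 held 51.3% of its UMIs, up to 86 in a cell, and 18.2% of cells had a UMI against 36.1% at an equal rate. To read this level as sensitive RNA assumes that resistant cells make no more FABP7 in coculture than in monoculture, which was not tested. Resistant monoculture cells, plated without sensitive cells, held up to 36 FABP7 UMIs in a cell. In sensitive cells FABP7 was found in 56.9% of coculture cells against 78.0% in monoculture. Under that assumption, removal of sensitive RNA at the share of 4.71% moved no member across the 1.5-fold limit.

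The ligands were scarcer than the receptors, and their make-up differed between the lines. Amphiregulin RNA (AREG, chr4:75310853-75320722, plus strand) stood at 2.40 CPM (2.10 to 2.73) in monocultured sensitive cells, 3.62 (3.195 to 4.10) in cocultured sensitive cells, 7.98 (7.60 to 8.39) in cocultured resistant cells and 5.49 (5.21 to 5.78) in monocultured resistant cells. No intervals overlapped, and both resistant populations were above both sensitive ones. Heparin-binding EGF RNA (HBEGF, chr5:139712428-139726188, minus strand) ran the other way, at 5.26 CPM (4.81 to 5.74), 4.29 (3.82 to 4.80), 3.26 (3.01 to 3.52) and 2.46 (2.28 to 2.66). Transforming growth factor alpha RNA (TGFA, chr2:70674416-70781325, minus strand) stood at 3.57 CPM (3.21 to 3.97), 2.38 (2.04 to 2.77), 1.07 (0.933 to 1.23) and 0.882 (0.774 to 1.00), with overlapping intervals in the resistant line. Betacellulin RNA (BTC, chr4:75669969-75719733, minus strand) stood at 1.72 CPM (1.47 to 2.01), 1.58 (1.30 to 1.901), 1.12 (0.975 to 1.27) and 0.890 (0.781 to 1.01), with overlap within each line. By CPM over all cells HBEGF, TGFA and BTC were thus each highest in sensitive monoculture and lowest in resistant monoculture cells. Within G1 cells BTC was at 1.80 CPM in sensitive monoculture and 1.98 CPM in sensitive coculture, a coculture over monoculture ratio of 1.10 (0.819 to 1.46).

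Epiregulin and neuregulin RNA was close to the limit of detection. EREG (chr4:75230862-75254466, plus strand), a neighbour of AREG, had 1, 4, 8 and 10 UMIs. NRG1, the ligand of ERBB3 and ERBB4, had 13, 7, 3 and 4 UMIs, or 0.135, 0.0987, 0.0150 and 0.0148 CPM. In sensitive monoculture 4 of the 13 NRG1 UMIs came from a single cell. The 4 neuregulin genes NRG1 to NRG4 summed to 0.426 CPM (0.306 to 0.578), 0.635 (0.463 to 0.849), 0.341 (0.265 to 0.432) and 0.266 (0.208 to 0.335). Ligands that bind EGFR (AREG, EREG, HBEGF, TGFA, BTC, EGF and EPGN) summed to 13.4 CPM (12.6 to 14.1), 12.2 (11.4 to 13.0), 13.6 (13.1 to 14.2) and 9.88 (9.51 to 10.3). NRG3 and NRG4 bind ERBB4 and not ERBB3, and NRG4 alone gave 0.208, 0.310, 0.235 and 0.221 CPM of that sum, NRG3 being at 0 UMIs. The cells held far more RNA for EGFR ligands than for neuregulins, while holding far more ERBB3 than EGFR RNA. Of these ligands HBEGF, BTC and EREG also bind ERBB4, whose RNA stood at 9.93 to 11.98 CPM.

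AREG held 18.3% (16.2 to 20.6) of the UMIs of the 6 ligands in monocultured sensitive cells, 30.1% (27.1 to 33.3) in cocultured sensitive cells, 59.2% (57.3 to 61.1) in cocultured resistant cells and 56.2% (54.2 to 58.1) in monocultured resistant cells. HBEGF held 40.1%, 35.6%, 24.1% and 25.2%, and TGFA held 27.3%, 19.8%, 7.95% and 9.03%. AREG was the leading ligand transcript in both resistant populations and HBEGF in sensitive monoculture. In sensitive coculture HBEGF was ahead over all cells, but with 152 UMIs against 156 of AREG in G1, 56 against 58 in S and 96 against 43 in G2M it led in G2M alone. The sum of the 6 ligands was 13.1, 12.03, 13.5 and 9.78 CPM.

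**Figure D2:**
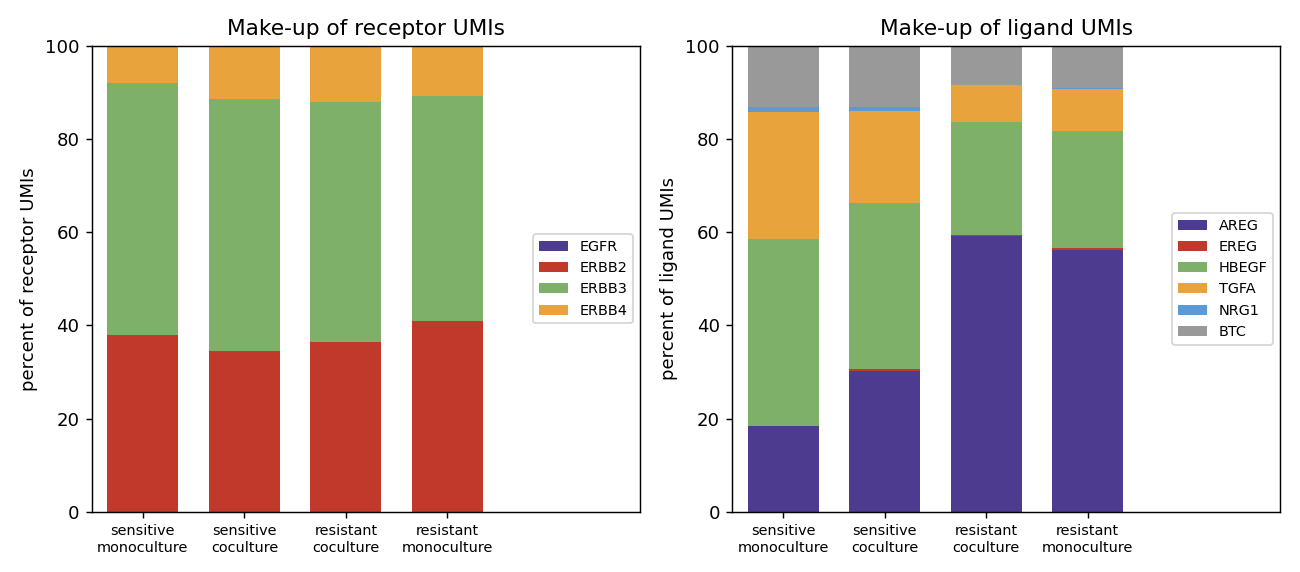
Percent of receptor UMIs (left) and of ligand UMIs (right) held by each gene, 1 bar for each population, stacked to 100%. ERBB3 and ERBB2 fill most of each receptor bar, and AREG takes 18.3% and 30.1% of the ligand bar in sensitive cells against 59.2% and 56.2% in resistant cells. EGFR and EREG are too small to be seen.

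In resistant cells AREG was seen in fewer cells than an equal rate would give. A UMI was found in 6.46%, 10.4%, 16.9% and 14.2% of cells, against 6.67%, 11.7%, 22.2% and 17.7% if all cells of a population had the same rate per UMI. Sensitive monoculture cells were close to an equal rate, and a single resistant coculture cell had 17 UMIs. At 5000 UMIs per cell the shares were 1.20%, 2.23%, 3.66% and 2.69%, in the order of the CPM values. For HBEGF the shares of cells with a UMI were 12.8%, 12.9%, 9.52% and 8.07%, against 13.97%, 13.6%, 9.77% and 8.42% at an equal rate, and for TGFA 9.58%, 7.87%, 3.29% and 3.02% against 9.76%, 7.85%, 3.34% and 3.11%. HBEGF and TGFA were thus nearer to an equal rate than AREG in resistant cells. A lower count per cell leaves less room for such a gap, and both were scarcer than AREG there. The genes were not matched for level, so their evenness over cells cannot be compared from these shares. Cells with a UMI of any ligand other than NRG1 showed ERBB2 and ERBB3 together in 56.4%, 47.9%, 51.8% and 57.5% of cases, and cells without in 59.1%, 48.5%, 48.2% and 54.6%. Cells with a ligand UMI were the deeper ones, with medians of 30972, 35591, 33262 and 38306 UMIs against 26251, 33534, 29818 and 34415.

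To compare populations, a gene was counted as higher or lower where its CPM ratio was at least 1.5 or at most 1/1.5, among genes with at least 50 UMIs over both sums. Of the 10 members 7 had enough UMIs in every comparison, and EGFR, EREG and NRG1 did not. In sensitive cells, coculture over monoculture, AREG was higher at a ratio of 1.51 (1.26 to 1.81) and ERBB2 was lower at 0.653 (0.620 to 0.687). These were 2 of 7 members, against 18.3% of 12326 genes tested. TGFA lay just short of the limit at 0.667 (0.551 to 0.804), and AREG lay just past it. ERBB3 was at 0.712 (0.683 to 0.742), HBEGF at 0.816 (0.705 to 0.942), BTC at 0.916 (0.714 to 1.17) and ERBB4 at 1.04 (0.947 to 1.15). The median ratio was 0.816 for the members tested and 0.959 for all genes tested. The intervals of AREG and ERBB2 both crossed the 1.5-fold limit. Had 10% of the RNA in cocultured sensitive barcodes come from resistant cells, an assumed share, AREG would have stood at a ratio of 1.31.

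In resistant cells, coculture over monoculture, 0 of 7 members passed the limit, against 4.51% of 13155 genes tested. AREG came nearest, at 1.45 (1.35 to 1.56), followed by HBEGF at 1.32 (1.19 to 1.48), BTC at 1.26 (1.04 to 1.51) and TGFA at 1.22 (1.01 to 1.47). The receptors were closer to 1, with ERBB4 at 1.13 (1.07 to 1.19), ERBB3 at 1.07 (1.04 to 1.10) and ERBB2 at 0.894 (0.868 to 0.921). All 4 ligands tested were on the higher side in coculture and ERBB2 was on the lower side, by less than 1.5-fold in each case. The coculture is a single library, so the partner line and the library cannot be told apart in these ratios.

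Between the monocultures, resistant over sensitive cells, AREG was higher at 2.29 (1.99 to 2.64), and TGFA at 0.247 (0.208 to 0.292), HBEGF at 0.468 (0.417 to 0.527) and BTC at 0.516 (0.422 to 0.632) were lower. These were 4 of 7 members, against 30.0% of 12968 genes tested. ERBB3 was at 0.703 (0.682 to 0.724), ERBB2 at 0.849 (0.820 to 0.879) and ERBB4 at 1.07 (0.992 to 1.15). All 4 ligands tested passed the limit, and none of the receptors did. In coculture, where both lines came from the same library, AREG was higher in resistant cells at 2.20 (1.93 to 2.52) and TGFA was lower at 0.4497 (0.366 to 0.554), which were 2 of 7 members against 13.2% of 12772 genes tested. BTC was at 0.707 (0.561 to 0.895) and HBEGF at 0.759 (0.662 to 0.873), and the receptors ran from 1.06 for ERBB3 to 1.16 for ERBB2. AREG and TGFA therefore differed between the lines in the same direction in both kinds of culture. The comparisons share populations pairwise, so their values are given side by side only.

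**Figure D3:**
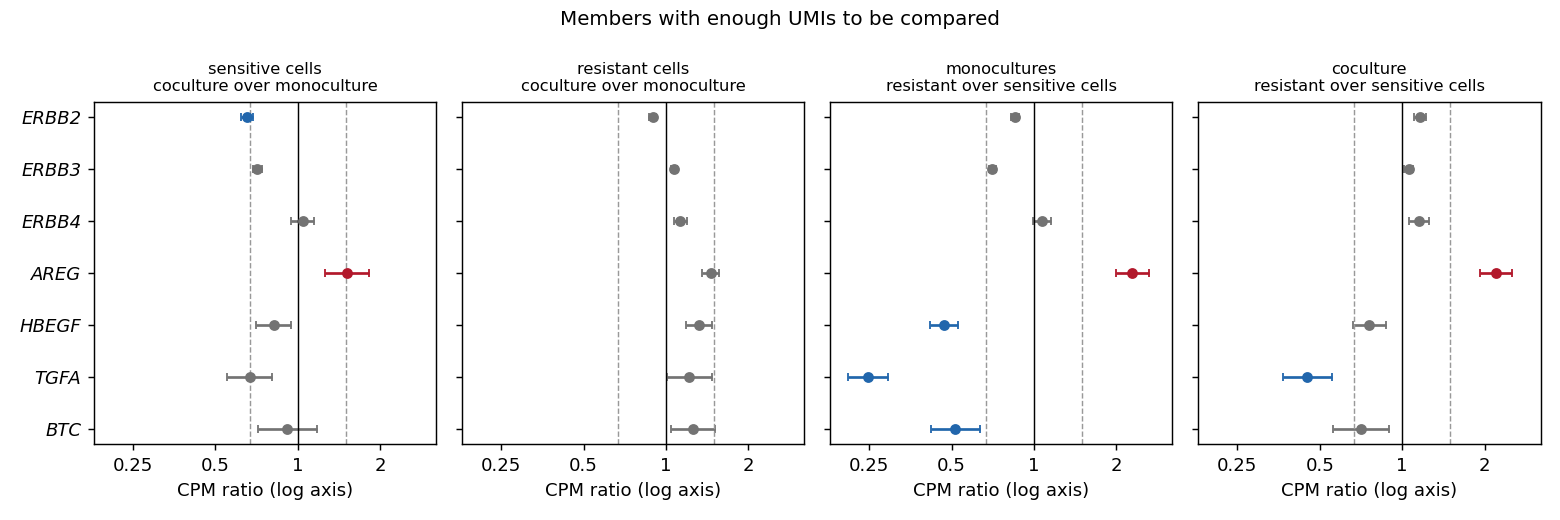
CPM ratio (log axis) of the 7 members with enough UMIs in the 4 comparisons of populations, with 95% counting intervals. Dashed lines mark 1.5-fold in either direction, red points are higher and blue points lower past that limit. AREG is red in 3 panels, at 1.51, 2.29 and 2.20, and ERBB2 is blue only for sensitive cells in coculture over monoculture, at 0.653.

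The share of cells in S or G2M differed widely, at 11.0% in monocultured sensitive cells, 44.7% in cocultured sensitive cells, 50.3% in cocultured resistant cells and 50.0% in monocultured resistant cells. Receptor levels were therefore also read within the phase that the deposited annotation gives each cell. ERBB2 stood at 51.0 CPM in G1, 29.3 in S and 27.8 in G2M in sensitive monoculture cells, and at 37.8, 23.7 and 24.7 CPM in sensitive coculture cells. It stood at 44.9, 28.9 and 28.9 CPM in resistant coculture cells and at 49.2, 32.7 and 33.2 CPM in resistant monoculture cells. G1 cells were the highest in all 4 populations, with no overlap of intervals between G1 and the other phases. ERBB3 stood at 72.4, 46.1 and 45.2 CPM in sensitive monoculture, 53.9, 43.3 and 43.4 CPM in sensitive coculture, 57.3, 43.7 and 49.7 CPM in resistant coculture and 54.0, 41.0 and 45.7 CPM in resistant monoculture cells. ERBB3 was highest in G1 as well, by a smaller margin. ERBB4 was at 10.3, 8.77 and 6.37 CPM, 11.4, 9.72 and 8.67 CPM, 13.4, 11.4 and 9.98 CPM, and 12.3, 10.00 and 7.88 CPM in the same order, and was lowest in G2M in each population.

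Of the 7 members tested, S over G1, 3 were lower in sensitive monoculture cells (ERBB2, ERBB3, TGFA; 11.2% of all genes tested were lower), 2 in sensitive coculture cells (ERBB2, BTC; 4.41%), 2 in resistant coculture cells (ERBB2, BTC; 4.41%) and 2 in resistant monoculture cells (ERBB2, BTC; 4.61%). For G2M over G1, 4 were lower in sensitive monoculture cells (ERBB2, ERBB3, ERBB4, BTC; 13.0%), 3 in sensitive coculture cells (ERBB2, AREG, BTC; 5.45%), 1 in resistant coculture cells (ERBB2; 4.68%) and 2 in resistant monoculture cells (ERBB4, BTC; 4.65%). All members past the limit in these 8 comparisons were on the lower side. Some rested on few UMIs outside G1. In sensitive monoculture, BTC in G2M had 8 UMIs, at 0.643 (0.273 to 1.30), an interval that reached 1. TGFA in S had 14 UMIs there, at 0.567 (0.306 to 0.965). In sensitive coculture BTC had 20 UMIs in S, at 0.591 (0.341 to 0.981), and 19 in G2M, at 0.566 (0.323 to 0.948). The ERBB2 ratio ran from 0.545 to 0.674, and only the highest, G2M over G1 in resistant monoculture cells, was short of the limit. The median ratio of the members tested ran from 0.643 to 0.847, and that of all genes tested from 0.979 to 1.06. AREG in resistant cells showed ratios from 1.01 to 1.08.

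Cells in S and G2M held more UMIs, with phase medians of 32622 to 39101 against 26713 to 33368 in G1, so the count per cell was read as well. ERBB2 gave 1.42 UMIs per cell in G1, 1.10 in S and 1.01 in G2M in sensitive monoculture, and 1.67, 1.25 and 1.23 in resistant monoculture. In coculture it gave 1.22, 0.882 and 0.905 in sensitive cells and 1.34, 0.977 and 0.969 in resistant cells. The lower ERBB2 level outside G1 was thus present per cell and not only as CPM. MALAT1, a nuclear noncoding RNA, was also lower outside G1, at 58346, 37069 and 24836 CPM in sensitive monoculture, 39861, 31187 and 26935 CPM in sensitive coculture, 50301, 44966 and 36732 CPM in resistant coculture and 47831, 42584 and 35015 CPM in resistant monoculture cells. Mitochondrially encoded genes held 16.99% to 20.7% of UMIs in G1 and 14.7% to 17.6% in S and G2M. The part of RNA quality in the phase differences was not tested. ERBB3 gave 2.02, 1.73 and 1.64 UMIs per cell in sensitive monoculture and 1.84, 1.56 and 1.70 in resistant monoculture. Among cells with 25000 to 35000 UMIs, ERBB2 was at 48.8, 32.5 and 22.5 CPM in sensitive monoculture and at 49.5, 35.6 and 38.0 CPM in resistant monoculture cells. In this depth range it was at 42.8, 30.0 and 29.5 CPM in resistant coculture cells and at 36.7 (33.5 to 40.2), 24.0 (19.3 to 29.5) and 30.3 (25.5 to 35.8) CPM in sensitive coculture cells, where the G1 and G2M intervals overlapped.

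**Figure D4:**
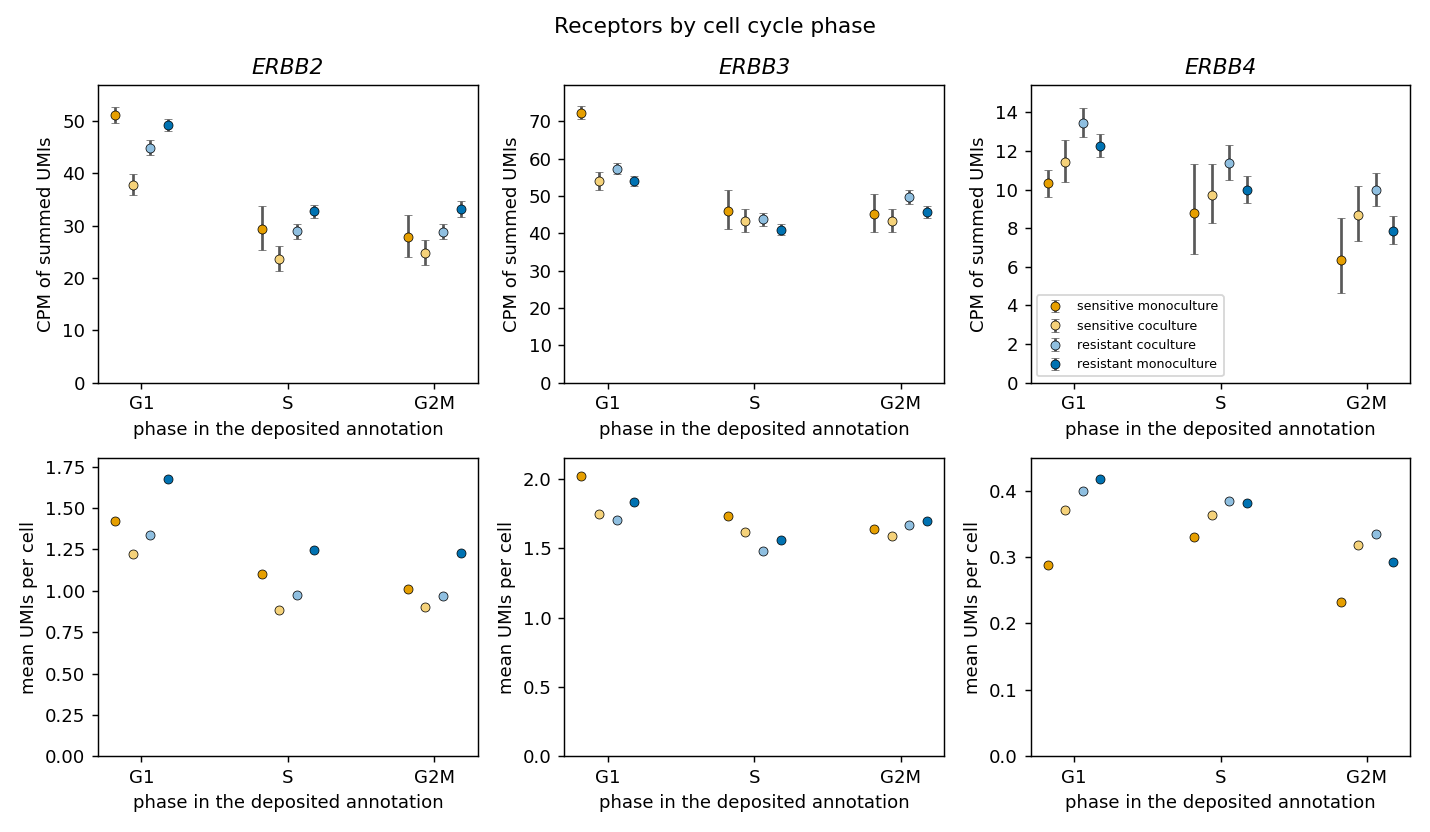
ERBB2, ERBB3 and ERBB4 by cell cycle phase in the 4 populations, as CPM of summed UMIs with 95% Poisson intervals (top) and as mean UMIs per cell (bottom), all axes from 0. In ERBB2 the G1 points lie above the S and G2M points of the same population in both rows, 51.0 CPM against 29.3 and 27.8 CPM in sensitive monoculture.

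Within G1 cells alone, ERBB2 in sensitive cells was at a coculture over monoculture ratio of 0.740 (0.696 to 0.786) and ERBB3 at 0.746 (0.708 to 0.785), so ERBB2 no longer passed the limit there. AREG was at 1.70 (1.37 to 2.10) and TGFA at 0.646 (0.505 to 0.821) within G1, both past the limit. Between the monocultures within G1, AREG was at 2.14 (1.83 to 2.52), HBEGF at 0.466 (0.403 to 0.540), TGFA at 0.248 (0.199 to 0.307) and BTC at 0.634 (0.502 to 0.802). In coculture within G1, AREG was at 1.85 (1.55 to 2.21) and TGFA at 0.517 (0.389 to 0.690). The AREG and TGFA differences between the lines were thus present among G1 cells. Within S and G2M, sensitive cells in coculture over monoculture gave 0.806 (0.678 to 0.962) and 0.889 (0.748 to 1.06) for ERBB2 and 0.940 (0.821 to 1.08) and 0.960 (0.840 to 1.10) for ERBB3, nearer to 1 than in G1. AREG was at 2.04 (1.06 to 4.31) and 1.25 (0.672 to 2.48) there, from 11 and 14 UMIs in monoculture, and TGFA at 1.16 (0.622 to 2.30) and 0.737 (0.422 to 1.32).

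ERBB2 and ERBB3 were highest in 2 of the 14 clusters of the deposited annotation. Cluster 8 (749 cells, 96.8% sensitive, 99.6% in G1, 7.08% from the coculture) held ERBB2 at 85.2 CPM and ERBB3 at 101 CPM, and cluster 12 (185 cells, 98.9% sensitive, 98.9% in G1, 15.1% from the coculture) held them at 71.3 and 115 CPM. In the other 12 clusters ERBB2 ran from 19.2 to 49.4 CPM and ERBB3 from 34.3 to 64.3 CPM. These clusters were also the shallowest, with medians of 21335 and 24317 UMIs per cell against 29338 to 38598 in the others, and had MALAT1 at 90040 and 86568 CPM against 8818 to 53743 CPM. Per cell, ERBB2 gave 1.88 and 1.79 UMIs in clusters 8 and 12 and 0.731 to 1.64 in the others, so the difference was smaller per cell than as CPM. With both clusters left out of every population, sensitive cells had ERBB2 at a coculture over monoculture ratio of 0.767 and AREG at 1.38, and neither ERBB2 nor AREG passed the limit in that comparison. Between the monocultures the ERBB2 ratio was then 1.03 instead of 0.849. The part of RNA quality in the result was not tested. AREG was at 2.90 and 1.72 CPM in these clusters and highest in cluster 9, at 11.1 CPM in 257 cells. It was also low in the sensitive clusters 4 (2.92 CPM) and 7 (2.50 CPM) and in 2 clusters of mostly resistant cells, cluster 6 (1105 cells, 1.99% sensitive) at 2.17 CPM (1.72 to 2.70) and cluster 10 (294 cells, 0.340% sensitive) at 2.68 CPM (1.81 to 3.82). In cluster 10 the resistant coculture cells were at 4.34 CPM (2.72 to 6.57) and the resistant monoculture cells at 1.32 CPM (0.568 to 2.59), and in cluster 6 they were at 2.61 CPM (1.88 to 3.55) and 1.86 CPM (1.32 to 2.55). The higher AREG of the resistant line was therefore not shared by all of its clusters.

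Among G1 cells split into 4 equal groups by UMI total, the CPM of both receptors was higher in shallow cells. In sensitive monoculture, from the shallowest group (median 16862 UMIs) to the deepest (40105 UMIs), ERBB2 was at 76.2, 66.8, 46.1 and 35.7 CPM and ERBB3 at 104, 89.5, 67.9 and 53.2 CPM, while ERBB2 gave 1.25, 1.57, 1.39 and 1.48 UMIs per cell. In resistant monoculture, with group medians from 22021 to 46902 UMIs, ERBB2 was at 61.4, 48.0, 47.8 and 45.7 CPM, with 1.31, 1.46, 1.75 and 2.18 UMIs per cell. The ERBB2 count per cell thus stayed between 1.25 and 1.57 over the depth range in sensitive monoculture cells and was higher in deeper cells of the resistant monoculture. In G1 cells of 25000 to 35000 UMIs, ERBB2 was at 48.8 CPM in monocultured sensitive cells, 36.7 in cocultured sensitive cells, 42.8 in cocultured resistant cells and 49.5 CPM in monocultured resistant cells, and ERBB3 at 70.9, 53.7, 55.0 and 53.7 CPM, so sensitive coculture cells were again the lowest in ERBB2 and sensitive monoculture cells the highest in ERBB3.

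**Figure D5:**
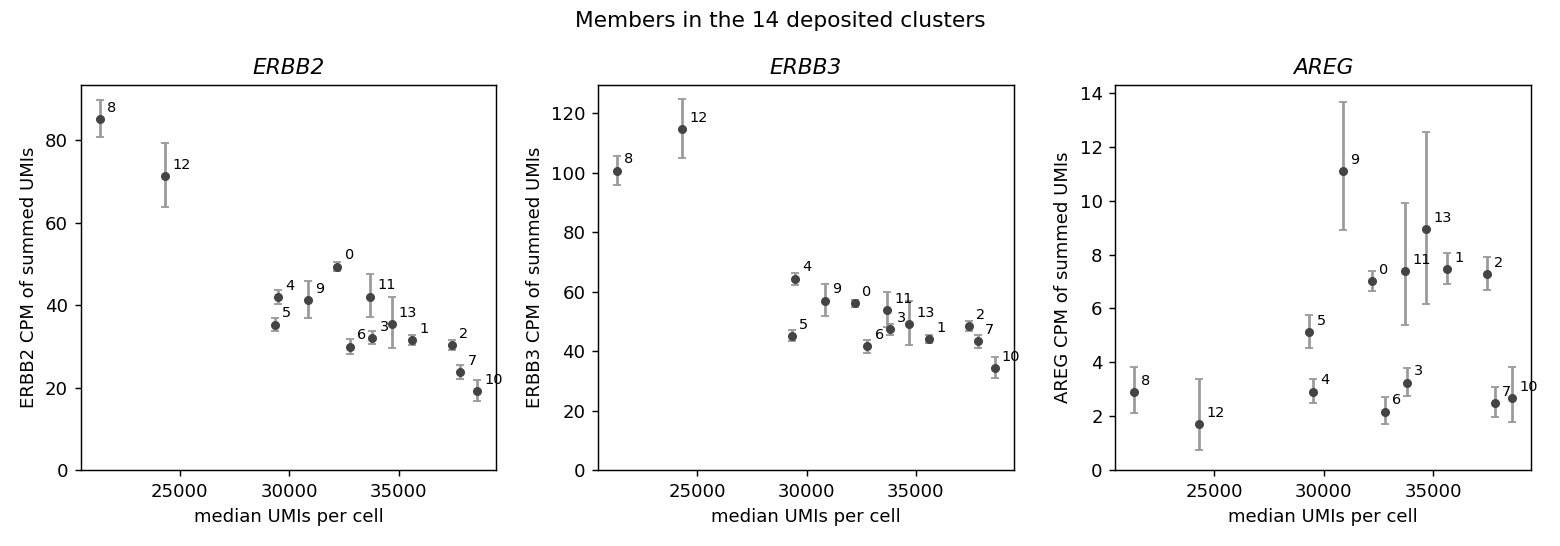
CPM of ERBB2, ERBB3 and AREG in the 14 deposited clusters against the median UMIs per cell, 1 numbered point for each cluster, bars showing the 95% Poisson interval. Clusters 8 and 12 stand apart at the left with ERBB2 at 85.2 and 71.3 CPM, while AREG is highest in cluster 9 at 11.1 CPM.

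Genes around the receptors were read from pathway lists, with the monocultures compared as resistant over sensitive cells, where 11.6% of all genes tested were higher and 18.5% lower. Of 11 genes for ligand release and receptor trafficking, 1 was lower, ADAM17, the main sheddase of EGFR ligands, at 0.569 (0.528 to 0.613), and 0 were higher. ADAM10, the other sheddase, was at 18.7 CPM in resistant and 26.3 CPM in sensitive monoculture cells, a ratio of 0.710 (0.677 to 0.745) that was 1.06 (0.999 to 1.12) in coculture, and AP2A1, a clathrin adaptor subunit, was at 1.34 (1.29 to 1.39). Among adaptor and RAS-MAPK genes, MAPK3 (the kinase ERK1) was higher at 1.53 (1.46 to 1.60) and the RAS activator SOS2 was lower at 0.588 (0.532 to 0.652). Of 14 PI3-kinase and AKT genes tested, 3 were lower: the catalytic subunit PIK3CA at 0.563, the regulatory subunit PIK3R1 at 0.504 and PIK3R3 at 0.611. The list medians were 0.900 for trafficking and 0.768 for PI3-kinase, beside 0.938 for all genes tested. In coculture the PI3-kinase list had 0 genes past the limit.

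Of 11 genes that restrain ERBB receptors, LRIG1 was higher at 1.502 (1.35 to 1.67), just past the limit and at 0.990 (0.878 to 1.12) in coculture, while ERRFI1, a feedback inhibitor of the receptor kinases, was lower at 0.333 (0.306 to 0.363) and LRIG3 at 0.412 (0.307 to 0.556). RNF41, a ubiquitin ligase for ERBB3, was at 0.770, and the ubiquitin ligase STUB1 at 1.19. Of 13 output genes of ERBB and MAPK signalling tested, 1 was higher, the feedback inhibitor SPRY4 at 1.62 (1.09 to 2.50), and 5 were lower, DUSP5 at 0.578, its relative DUSP6, SPRY1 at 0.398, MYC and PHLDA1 at 0.239. DUSP6, the phosphatase that acts on ERK, was at 4.88 CPM in monocultured sensitive cells, 1.88 in cocultured sensitive cells, 0.952 in cocultured resistant cells and 0.506 CPM in monocultured resistant cells, a ratio of 0.104 (0.0850 to 0.126) between the monocultures. ERRFI1 was at 11.8, 6.29, 5.43 and 3.93 CPM and MYC at 81.9, 69.5, 59.4 and 54.0 CPM in the same order, and DUSP4 was at 20.9, 20.3, 13.4 and 14.5 CPM. DUSP5 was at 13.5, 7.48, 8.42 and 7.82 CPM, SPRY1 at 2.67, 1.83, 1.95 and 1.06 CPM and PHLDA1 at 3.69, 3.99, 0.937 and 0.882 CPM. The output genes thus did not share 1 order over the populations. The median ratio of the output genes was 0.696 between the monocultures and 1.04 in coculture, where 3 were higher (SPRY4 at 3.07, EGR1 at 1.63, FOS at 1.52) and 3 lower (DUSP4, DUSP6, and PHLDA1 at 0.235) of 12 tested, against 13.2% of all genes in either direction.

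The 10 genes listed as neighbours of ERBB2 on chromosome 17 were read beside it. Between the monocultures 8 had enough UMIs, of which 1, PNMT, was higher at 3.44 (2.05 to 6.17) from under 1 CPM in both, and 0 were lower, with a median ratio of 1.12. MIEN1, the adjacent gene, was at 115, 112, 112 and 124 CPM, CDK12 at 45.4, 58.1, 62.7 and 54.6 CPM and the adaptor GRB7 at 4.52, 4.88, 6.81 and 6.43 CPM. Sensitive cells in coculture over monoculture gave 0.970 (0.942 to 0.998) for MIEN1, 1.28 (1.23 to 1.33) for CDK12 and 0.706 (0.572 to 0.869) for PGAP3, a neighbour on the other side, beside 0.653 for ERBB2. Of 6 neighbours with enough UMIs in that comparison 0 passed the limit, against 18.3% of all genes tested, and their median ratio was 1.01, beside 0.959 for all genes.

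Across the 12 sums of 4 populations and 3 phases, the genes most like ERBB2 among 6774 genes by Pearson correlation of log2(CPM + 1) were IMPACT (r = 0.959), VPS28 (0.955) and YIPF3 (0.954). Those most like ERBB3 were TAX1BP1 (0.968), VAMP2 (0.961) and RNF13 (0.956), and those most like ERBB4 were TCEAL4 (0.943), CLSTN3 (0.941) and ERCC2 (0.939). ERBB2 and ERBB3 correlated at 0.833, ERBB2 and ERBB4 at 0.574 and ERBB3 and ERBB4 at 0.440. These are descriptions over sums that share 3 libraries and their depth.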

How the data were processed

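Single-cell RNA was measured in 3 libraries, 1 per spheroid composition. The authors aligned reads and counted UMIs with Cell Ranger 3.0.2 on GRCh37, per the labels, and deposited raw counts per gene and barcode for 8643, 20227 and 11502 barcodes, with 173405094, 519475237 and 359599734 UMIs on rows with a symbol. Rows without a symbol held 0.523% to 0.591% of UMIs and were left out. Populations, phases and clusters came from the deposited annotation, of which 12 columns were not used. Monoculture cells carry the line of their library, and coculture cells were assigned by transgene UMIs. The annotated cells held 0 UMIs of the other line's transgene, so cells with UMIs of both transgenes were not among them. In coculture 1127 of 2059 sensitive and 3932 of 6292 resistant cells had 2 or more UMIs of their own transgene. With so few transgene UMIs a barcode with RNA of both lines can show 1 transgene alone, so the 0 does not exclude such barcodes. No doublet caller was run here. The paper reports that predicted doublets were removed, and that cells with 2 or more UMIs of either transgene were kept. By the counts above, many annotated coculture cells fell short of that transgene limit.

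Raw counts were summed per population and phase with Python 3.11.15 (numpy 2.4.6, scipy 1.17.1, pandas 2.3.3) and given as CPM with exact Poisson intervals, as CPM ratios without pseudocount and with exact conditional binomial (Clopper-Pearson) intervals, and as shares of cells with exact binomial intervals, at 95%. A count of 0 stood for 3 counts. A gene was counted at a CPM ratio of at least 1.5 in either direction with at least 50 UMIs over both sums. With 1 library per condition no test was possible, cells not being replicates. Ratios and intervals were run on simulated Poisson counts with known folds, without spread between cells or libraries. The intervals assume the same model, so this checks the calculation and not how they cover the spread of the real counts. TMM factors (edgeR 4.0.16 in R 4.3.3) served as an alternative scaling of these deposited counts. Named genes beside the members were, for each list, the 2 with at least 10 mean CPM that differed most between monocultures, and the 3 most correlated with each receptor of at least 10 CPM. Other list genes past 1.5-fold, and GRB7 and PGAP3, were named after their values were seen. One gene of the adaptor and RAS-MAPK list is not reported here, and neither are the counts and median of that list. Gene positions were taken from GENCODE 44 in its GRCh37 version, which is newer than the annotation used for the counts. The members and lists were chosen with earlier results of these data known.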

Additional observations from a re-analysis of the deposited data

Results flagged for a closer look

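For 3 members the coculture over monoculture ratio lay below 1 in sensitive cells and above 1 in resistant cells with neither counting interval reaching 1, and the difference between the lines was not tested. ERBB3 was at 0.712 (0.683 to 0.742) in sensitive and 1.07 (1.04 to 1.10) in resistant cells. HBEGF was at 0.816 (0.705 to 0.942) in sensitive and 1.32 (1.19 to 1.48) in resistant cells. TGFA was at 0.667 (0.551 to 0.804) in sensitive and 1.22 (1.01 to 1.47) in resistant cells. BTC had the same directions, at 0.916 (0.714 to 1.17) and 1.26 (1.04 to 1.51), with the first interval reaching 1. The coculture library is the same in both ratios. These ratios are over all cells, and the share of cells in S or G2M differed between the sensitive populations. Within G1 the 3 members kept these directions, with HBEGF at 0.773 (0.639 to 0.932) in sensitive cells. Within S and G2M the sensitive intervals of all 3 reached 1, with HBEGF at 0.867 (0.532 to 1.45) and 0.978 (0.670 to 1.45). TGFA in resistant cells was at 1.03 (0.703 to 1.51) in S. By the share of sensitive cells with a UMI, HBEGF was not lower in coculture, at 12.9% against 12.8% in monoculture. ERBB3 was at 76.4% against 81.8% and TGFA at 7.87% against 9.58%. Sensitive coculture cells were the deeper ones, with a median of 34056 UMIs against 27622.

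Barcodes without annotation, which the comparisons did not use, also held ERBB RNA. In the sensitive monoculture library 5314 such barcodes had ERBB2 at 75.5 CPM against 47.9 CPM in annotated cells, a ratio of 1.58 (1.52 to 1.64), and ERBB4 at 17.04 against 9.93 CPM, a ratio of 1.72 (1.58 to 1.87). In the resistant monoculture library 3945 such barcodes had ERBB2 at 62.2 against 40.7 CPM, a ratio of 1.53 (1.48 to 1.58), and TGFA at 1.42 against 0.882 CPM, a ratio of 1.61 (1.29 to 2.01). In the coculture library 11876 such barcodes had ERBB2 at a ratio of 1.60 (1.56 to 1.65) and TGFA at 1.70 (1.49 to 1.94). Among members with at least 50 UMIs, AREG in the sensitive monoculture library went the other way past 1.5-fold, at 0.659 (0.525 to 0.824), and it was at 0.901 and 0.973 in the coculture and resistant monoculture libraries. Mitochondrially encoded genes held 48.2% of UMIs in unannotated and 20.3% in annotated barcodes of the sensitive monoculture, and 29.6% and 16.1% in the resistant monoculture. In the coculture library they held 30.8% and 16.4%. With these genes left out of the total the ERBB2 ratios were 2.43, 1.94 and 1.82 in the sensitive monoculture, coculture and resistant monoculture libraries. ERBB3 was then at 2.08, 1.64 and 1.74 in the same order, and ERBB4 at 2.64 in the sensitive monoculture library. The AREG ratio in the sensitive monoculture library was 1.02, so its lower level was not seen on that scale. Unannotated barcodes were also shallower, with medians of 14010 against 27622 UMIs in the sensitive and 14030 against 35443 UMIs in the resistant monoculture. In coculture the medians were 19904 against 31522 UMIs. The paper describes selecting cells by limits on genes, UMIs and mitochondrial share. The depth and mitochondrial share of annotated and unannotated barcodes are thus not independent of that selection. The part of RNA quality in these ratios was not tested.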

How the results depend on the processing

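Of 532 member ratios under an alternative, 481 stayed within the main counting interval and 0 of those past 1.5-fold turned direction. Part of this was fixed in advance. The minimum of 200 UMIs leaves each ratio unchanged, so its ratios are within the interval by construction. A pseudocount cannot turn a direction. Of 90 counts of members past 1.5-fold, 64 stayed within 1.5 times of the main count. The 4 members between the monocultures became 3 to 5, and the 2 between the lines in coculture 2 to 3. For sensitive cells, coculture over monoculture, the count of 2 became 1 with a pseudocount of 1 CPM (ERBB2), 1 with an assumed 10% of resistant RNA removed (ERBB2), 0 where the whole interval had to pass, 0 with clusters 8 and 12 left out of every population and 0 with them left out of the sensitive monoculture alone. Among settings where it stayed at 2, the genes were AREG and ERBB2 with TMM factors and with a minimum of 200 UMIs. They were AREG and TGFA in G1 cells and in G1 cells of 25000 to 35000 UMIs. With mitochondrially encoded genes left out of the total they were ERBB2 and TGFA. For resistant cells the count of 0 became 1 without the tenth of cells with the most UMIs (AREG), 1 in cells with 2 or more transgene UMIs (AREG) and 1 in G1 cells of 25000 to 35000 UMIs (TGFA). With the whole interval past 1.5-fold, the sensitive monoculture counts were 1 for S and 1 for G2M over G1 (ERBB2), and the other 6 phase counts were 0. With the pseudocount, the phase counts became 1 and 1 in sensitive coculture cells, 1 for S in resistant coculture cells, and 0 and 0 in resistant monoculture cells. A minimum of 200 UMIs left 1 and 1 in sensitive coculture cells, 1 for S in resistant coculture cells and 1 for G2M in resistant monoculture cells. Without the tenth of cells with the most UMIs, S over G1 in resistant monoculture cells left 1 (BTC). In sensitive monoculture, S over G1 then gave 0.723 for ERBB3 and 0.726 for TGFA, short of the limit, and 0.319 for BTC, past it. There G2M over G1 gave 0.849 for BTC, short of it, and 0.607 for TGFA, past it. In sensitive coculture, G2M over G1 gave 0.735 for ERBB2, short of it. The fewer members past the limit with a pseudocount and a UMI minimum follow from their construction, and the cause of the other moves was not tested. The alternatives for clusters 8 and 12, the UMI window, the FABP7 share and mitochondrially encoded genes were chosen after seeing the data. No paired analysis was possible because each composition is 1 library. EGFR, EREG and NRG1 fell short of the minimum of 50 UMIs in every comparison, so no ratio of them was read.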
